A study of Mus musculus with 4 samples.

Results

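The genes of the cytosolic ribosomal proteins were examined in 4 cell populations of the mouse aorta-gonad-mesonephros region (AGM), the embryonic site at which the first hematopoietic stem cells form. Genes were chosen by name and type alone: protein-coding genes whose symbol was Rpl, Rps or Rplp with a number, leaving out the Rps6 kinases and symbols that mark a pseudogene. This gave 81 of the 51205 genes in the table. Of these, 73 encode the ribosomal proteins themselves (40 of the large subunit, 30 of the small subunit and 3 of the P stalk), and 8 are paralogs or retrocopies that were kept apart. Subunits with other kinds of names (Rpsa, Fau and Rack1) were not counted but are given beside them.

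All cells came from embryos at embryonic day 11 that carried a GFP reporter for Runx1, the transcription factor needed for the endothelial-to-hematopoietic transition. The labels call the genotype WT, while the study's supplement describes a pool of Runx1-GFP/GFP and Runx1-GFP/+ embryos, so how many reporter copies the cells carried is uncertain. Every gate was NG2-PDGFRB-CD31+, that is without pericyte markers and with an endothelial marker. Both endothelial gates were ckit-CD45-. They differ in the reporter, which is Runx1(GFP)- in endothelial cells (ECs) and Runx1(GFP)+ in hemogenic endothelial cells (HECs). Cells of the intra-aortic hematopoietic clusters (IAHCs) were ckit+ with no gate on CD45, and were sorted into Runx1(GFP)+ and Runx1(GFP)- cells. Each population gave 1 library, so the differences below have no replicate check and no test, and intervals cover the counting error of reads only. In bulk RNA, a lower level per cell and fewer cells of a type cannot be told apart.

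The ribosome is built of ribosomal RNA and about as many kinds of protein as there are genes described here, most of them present in 1 copy per ribosome. Their mRNAs are short, abundant and usually begin with a C followed by a run of pyrimidines, the 5′ terminal oligopyrimidine (TOP) motif through which the mTOR pathway controls their translation. Mammalian genomes also hold many processed pseudogenes of these genes, which are copies of the spliced mRNA, and short reads cannot always be assigned to the right copy.

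The start regions of genes at both ends of the range described below are shown because the TOP motif lies there. RefSeq start regions (GRCm38.p6, from 250 bases before to 50 bases after the start) were matched by symbol for 55 of the 73 genes. Each line gives 20 bases before and 20 bases from the annotated start, 5′ to 3′ on the strand of the gene, and capitals mark the first run of C followed by at least 4 C or T. Rps12, Rps21, Rpl39 and Rpl22 were among the lowest in Runx1- IAHCs relative to ECs, and Rpl4, Rplp0 and Rpl6 were higher there than in ECs, Rpl6 only before the median-ratio scaling described below. No such run was found in the Rpl22 window.
Rps12 (chr10:23787190-23787229, minus strand): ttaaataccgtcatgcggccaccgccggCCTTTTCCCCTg
Rps21 (chr2:180257359-180257398, plus strand): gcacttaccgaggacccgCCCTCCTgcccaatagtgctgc
Rpl39 (chrX:37085203-37085242, minus strand): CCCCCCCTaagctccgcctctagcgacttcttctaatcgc
Rpl22 (chr4:152325706-152325745, plus strand): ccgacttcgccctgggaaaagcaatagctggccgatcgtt
Rpl4 (chr9:64173367-64173406, plus strand): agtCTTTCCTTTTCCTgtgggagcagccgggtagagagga
Rplp0 (chr5:115559447-115559486, plus strand): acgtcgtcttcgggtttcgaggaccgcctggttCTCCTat
Rpl6 (chr5:121204481-121204520, plus strand): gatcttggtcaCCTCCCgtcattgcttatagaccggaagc

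Such a run lay exactly at the annotated start in 12 of the 55 genes (21.8%), compared with 2.49% of all 27025 start regions. Allowing it to begin within 20 bases of the start, a window chosen after the sequences were seen, gave 43 of the 55 (78.2%) and 49.6% of all. Within the whole 300-base region, the ETS family motif CCGGAAG on either strand was in 21 of the 55 genes (38.2%) and 9.12% of all regions. The YY1 motif AANATGGC on either strand was in 10 genes (18.2%, 6.23% of all) and TATAAA on the sense strand in 5 (9.09%, 8.88% of all). These are matches of letters and not measured binding sites. The genes were spread over 19 chromosomes, with 14 on chromosome 7 and 4 on the X chromosome.

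Reads recovered from the deposited values came to 12420598 to 15917924 per library over the genes that gave whole numbers, and 17732 to 21850 genes had at least 1 read. Most cells were sorted for the EC library and fewest for Runx1- IAHCs, and the part of cell number in the results was not tested. Markers of other cell types differed between libraries. The 12 primordial germ cell markers summed to 7268 TPM in Runx1- IAHCs, where each had a read, while the sums were 694 TPM for ECs, 18.2 TPM for HECs and 4.37 TPM for Runx1+ IAHCs. Pou5f1, Prdm1 and Prdm14 had no read in HECs, and Dppa3, Dppa5a, Prdm14, Rhox6, Rhox9 and Utf1 had none in Runx1+ IAHCs. The 11 megakaryocyte and platelet markers summed to 55427 TPM in HECs and to 77.0 to 428 TPM elsewhere, with F2rl2, Gp9 and Ppbp without a read in Runx1- IAHCs. Of 13 hematopoietic markers 12 were in the table, summing to 3764 TPM in HECs, 2284 TPM in Runx1+ IAHCs, 70.5 TPM in ECs and 60.6 TPM in Runx1- IAHCs, where Cd52, Ptprc, Spn and Tyrobp had no read. The 12 erythroid markers summed to 48530 TPM in ECs and 25948 TPM in HECs and to 594 and 596 TPM in Runx1+ and Runx1- IAHCs. The 15 endothelial markers were all found in each library, with sums of 2849 TPM (ECs), 368 TPM (HECs), 176 TPM (Runx1+ IAHCs) and 2810 TPM (Runx1- IAHCs). By these lists the HEC library was low in endothelial and high in platelet markers for its name. Runx1- IAHCs were high in germ cell markers and without several hematopoietic markers, and ECs were high in erythroid markers. Mitochondrial genes took 10.5% of TPM in ECs and 4.98% to 5.22% in the other libraries. The part of the cell type markers in the results below was not tested.

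Ribosomal protein genes were highest in Runx1+ IAHCs and lowest in Runx1- IAHCs, the populations that the Runx1 reporter separates among ckit+ cells. All 73 genes were found in each library. Together they took 7.08% of all TPM in Runx1+ IAHCs, 5.48% in ECs, 4.68% in HECs and 3.97% in Runx1- IAHCs. Of the 73 genes, 58 had their highest value in Runx1+ IAHCs, compared with 19.2% of the 9761 genes that reached 10 TPM anywhere. None had its lowest value there. In Runx1- IAHCs 50 had their lowest value, compared with 23.1% of the 9761 genes. The other lowest values were in ECs (19 genes) and HECs (4 genes).

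By summed TPM, the order of the libraries was the same in both subunits. By medians it was not, since from ECs to HECs the large subunit genes went from 356 to 361 TPM and the small subunit genes from 690 to 540 TPM. The summed TPM of large subunit genes was 0.90, 0.96, 0.94 and 0.92 of that of small subunit genes in ECs, HECs, Runx1+ IAHCs and Runx1- IAHCs. The median gene was at 588 TPM in ECs, 451 TPM in HECs, 681 TPM in Runx1+ IAHCs and 344 TPM in Runx1- IAHCs. The lowest gene was Rpl21 in every library, from 51.4 to 95.02 TPM. Levels of different genes were ranked similarly in the 4 libraries, with Spearman correlations over the 73 genes between 0.80 (ECs and Runx1- IAHCs) and 0.96 (HECs and Runx1+ IAHCs), although the points share gene length and sequence.

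**Figure D1:**
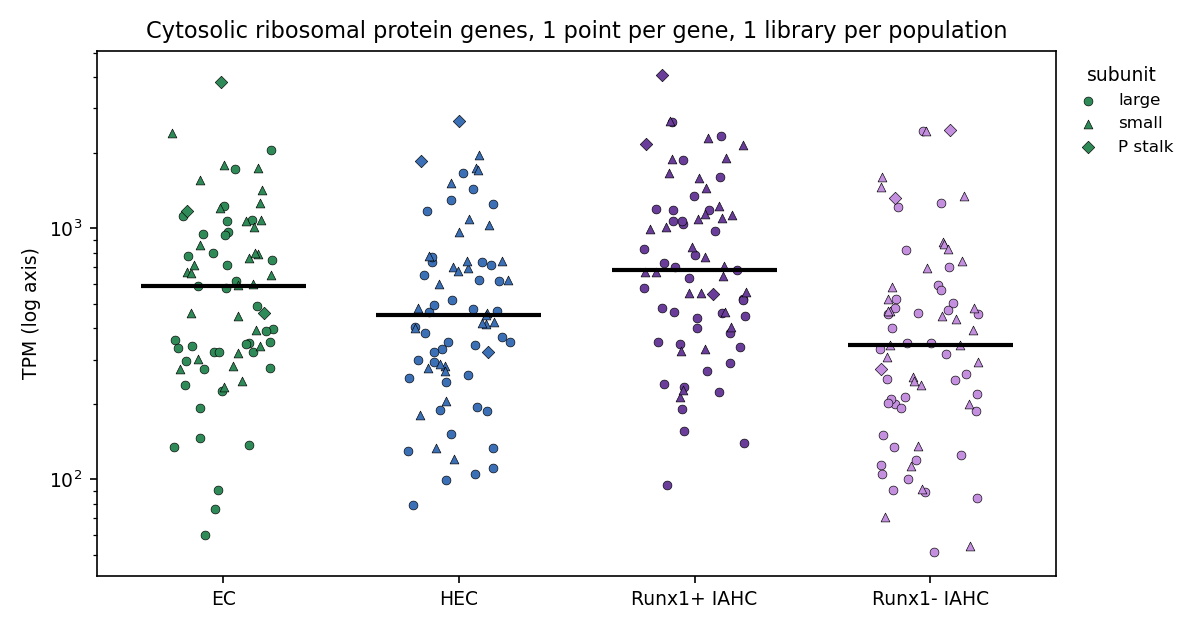
TPM of the 73 ribosomal protein genes (log axis) in the 4 libraries, with 1 point per gene, the shape giving the subunit and the bar the median. The medians are 588 TPM in ECs, 451 TPM in HECs, 681 TPM in Runx1+ IAHCs and 344 TPM in Runx1- IAHCs, and the ranges overlap widely.

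The P stalk, the part of the large subunit that recruits the elongation factors, held the most abundant gene of each library, while another of its genes, Rplp2, was below the median ribosomal protein gene in every library. Rplp1 (ENSMUSG00000007892, GRCm38 chromosome 9, 61913284 to 61914542) had the highest mean level, with 3826 TPM in ECs, 2682 TPM in HECs, 4093 TPM in Runx1+ IAHCs and 1318 TPM in Runx1- IAHCs. Its partner Rplp2 was at 459, 323, 548 and 274 TPM in the same order, so both were lowest in Runx1- IAHCs. Rplp0 (chromosome 5, 115559467 to 115563727), which anchors the stalk to the ribosome, was at 1176 TPM in ECs, 1851 TPM in HECs, 2166 TPM in Runx1+ IAHCs and 2461 TPM in Runx1- IAHCs. It was the most abundant ribosomal protein gene of Runx1- IAHCs, where Rplp1 led in the other 3 libraries. The 10 genes with the highest mean, among them Rplp1, Rpl4, Rplp0, Rps15, Rpl32, Rps14, Rps29 and Rpl19, held 34.0%, 37.5%, 35.6% and 43.4% of the summed level in the same order of libraries.

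These 10 genes differed in how far their levels ranged over the libraries. Rps15 ranged from 1350 TPM in Runx1- IAHCs to 2294 TPM in Runx1+ IAHCs. Rps14 was between 1458 TPM in Runx1- IAHCs and 1907 TPM in Runx1+ IAHCs. Rpl32 was at 1266 TPM in Runx1- IAHCs and 2329 TPM in Runx1+ IAHCs, and Rpl19 was lowest in ECs (1071 TPM) and highest in Runx1+ IAHCs (1871 TPM). Rps29, a short zinc-binding protein of the small subunit, varied more, with 2394 TPM in ECs, 1032 TPM in HECs, 1894 TPM in Runx1+ IAHCs and 695 TPM in Runx1- IAHCs.

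Runx1+ and Runx1- IAHCs were compared as the reporter-positive and reporter-negative ckit+ cells. Germ cell markers summed to 7268 TPM in Runx1- IAHCs and 4.37 TPM in Runx1+ IAHCs, and the part of this in the differences was not tested. On the log2(TPM + 1) scale, 71 of the 73 genes were higher in Runx1+ IAHCs, with a median difference of 1.02 (interquartile range over genes 0.67 to 1.27), while the median of all 8726 genes compared was -0.53. At least 2-fold higher were 38 genes, against 15.8% of all genes, and 0 were at least 2-fold lower, against 37.9% of all. Rps12 had the largest difference, followed by Rps20, Rpl39 and Rps21. Rplp0 (-0.18), Rpl4 (0.11) and Rpl15 (0.14) were at the low end of this comparison. Rescaling the libraries by median ratios moved the median of all genes by 0.13 and that of the ribosomal protein genes to 1.12, and no gene turned sign.

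Rps12 (ENSMUSG00000061983, chromosome 10, 23785183 to 23787275), a small subunit protein, was at 282 TPM in ECs (95% counting interval 274 to 290), 180 TPM in HECs (175 to 186), 403 TPM in Runx1+ IAHCs (394 to 412), and only 54.1 TPM in Runx1- IAHCs (50.8 to 57.5). The level was 7.45-fold higher in Runx1+ than in Runx1- IAHCs (6.98 to 7.96). Rps20 (ENSMUSG00000028234, chromosome 4, 3831334 to 3835665), a protein of the small subunit head, was at 664 TPM in ECs, 270 TPM in HECs, 670 TPM in Runx1+ IAHCs and 135 TPM in Runx1- IAHCs. ECs and Runx1+ IAHCs were thus nearly alike in Rps20, while the ratio between the IAHC libraries was 4.95 (4.81 to 5.10). Rps21 (ENSMUSG00000039001, chromosome 2, 180257377 to 180258445) had the same shape, with 1015, 479, 1014 and 247 TPM in ECs, HECs, Runx1+ IAHCs and Runx1- IAHCs, and a ratio of 4.11 between IAHCs (3.91 to 4.33).

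Runx1- IAHCs were compared with ECs as the reporter-negative populations. Most ribosomal protein genes were lower in Runx1- IAHCs, whereas the median of all genes was higher. The median difference was -0.74 over the 73 genes (interquartile range -1.16 to 0.05) and 0.71 over all 8936 genes compared. At least 2-fold lower were 23 genes, against 16.6% of all genes, and 2 were at least 2-fold higher, against 42.5% of all. The spread between genes was wider here than in the other comparisons, from -2.55 for Rpl39 to 1.19 for Rpl4. Scaling by median ratios, which moved the median of all genes by -0.63, left 0 genes at least 2-fold higher and 42 lower, where 29.4% of all genes were higher and 27.2% lower on that scale, and 15 genes near 0, Rpl6 and Rpl15 among them, turned from higher to lower. The median of the ribosomal protein genes stayed below that of all genes, by -1.45 as deposited and by -1.33 after scaling.

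The lowest genes of this comparison were Rpl39, Rps12, Rps20 and Rps21. Rpl39 (ENSMUSG00000079641, chromosome X, 37082520 to 37085402), a very small protein at the tunnel through which the new peptide leaves the ribosome, was at 619 TPM in ECs, 329 TPM in HECs, 516 TPM in Runx1+ IAHCs and 105 TPM in Runx1- IAHCs. It was 5.90-fold lower in Runx1- IAHCs than in ECs (5.57 to 6.25). Rpl22 (chromosome 4, 152325742 to 152334071), an RNA-binding protein of the large subunit that mouse T cell development needs, was at 320, 133, 291 and 88.7 TPM in ECs, HECs, Runx1+ IAHCs and Runx1- IAHCs. Rpl27a, the remaining gene among the 6 with the widest range, was at 588, 354, 702 and 187 TPM in the same order. In all 6 genes (Rps12, Rpl39, Rps20, Rps21, Rpl27a and Rpl22) Runx1- IAHCs were lowest and HECs were next.

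Rpl4 and Rplp0 were at the other end. Rpl4 (ENSMUSG00000032399, chromosome 9, 64173375 to 64178666), a large subunit protein that lines the exit tunnel, was at 1076 TPM in ECs, 1653 TPM in HECs, 2651 TPM in Runx1+ IAHCs and 2448 TPM in Runx1- IAHCs, and was 2.28-fold higher in Runx1- IAHCs than in ECs (2.24 to 2.32). In Rpl4 and Rplp0 ECs were lowest, and under median-ratio scaling both remained higher in Runx1- IAHCs than in ECs, by 0.68 and 0.56.

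**Figure D2:**
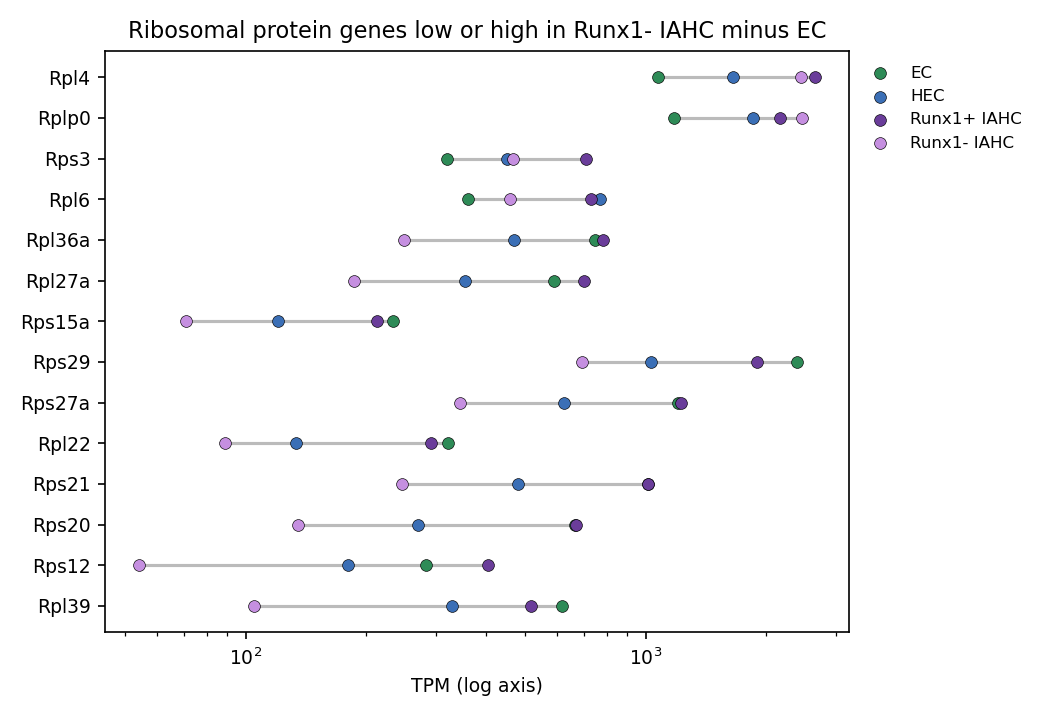
TPM (log axis) of the 10 lowest ribosomal protein genes by the difference Runx1- IAHCs minus ECs and of 4 genes that were higher in Runx1- IAHCs, with 1 point per library and a line over the range. In the 10 lower genes the Runx1- IAHC point is at the left end, at 54.1 TPM for Rps12, and in the 4 upper genes the EC point is at the left end, at 1076 TPM for Rpl4.

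The comparison of HECs with ECs sets the reporter-positive against the reporter-negative ckit-CD45- cells. The HEC library had 55427 TPM of platelet markers and 368 TPM of endothelial markers, against 428 and 2849 TPM in ECs, and the part of this in the differences was not tested. The genes differed little as a group, with a median of -0.23 (interquartile range -0.59 to 0.18) against 0.12 over all 7793 genes, and 47 of 73 were lower in HECs. At least 2-fold lower were 5 genes, against 18.6% of all genes, and 1 was at least 2-fold higher, against 22.7% of all, so both shares were below the background. The lowest were Rps20 (-1.30), Rpl22 (-1.26), Rps29 (-1.21) and Rps21 (-1.08), and the 1 gene past 2-fold upwards was Rpl6 (1.09). Rpl6, a large subunit protein, was at 360 TPM in ECs, 768 TPM in HECs, 729 TPM in Runx1+ IAHCs and 459 TPM in Runx1- IAHCs. Rplp0 (0.65) and Rpl4 (0.62) were also at the upper end. With median-ratio scaling, which moved all genes by -0.26, the median of the ribosomal protein genes was -0.43, and without mitochondrial, ribosomal protein and hemoglobin genes in the scaling it was -0.38. By median ratios 12 genes were lower and 0 higher by 2-fold, against 24.1% and 17.9% of all genes on that scale, and 8 genes near 0 turned sign.

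Runx1+ IAHCs were compared with HECs as the reporter-positive populations. Here 71 of 73 genes were higher in Runx1+ IAHCs, by a median of 0.66 (interquartile range 0.46 to 0.79), with 0.19 over all 7279 genes. Only 5 genes were at least 2-fold higher, against 13.3% of all genes, and 0 were at least 2-fold lower, against 13.9% of all. The difference was thus small and similar from gene to gene. The highest were Rps20 (1.31), Rps12 (1.15), Rpl22 (1.12) and Rps21 (1.08), and Rpl10 (-0.14), Rpl6 (-0.07) and Rpl15 (0.16) were at the low end. Median-ratio scaling moved all genes by -0.23, left 1 gene past 2-fold upwards, against 8.31% of all genes on that scale, and turned 5 genes from higher to lower, Rpl15 among them. The 4 comparisons share libraries, so a gene with an extreme value in 1 library, such as Rps20 in Runx1- IAHCs, appears in more than 1 of them.

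Short coding sequences lay at the lower end in HECs and Runx1- IAHCs. Coding length ran from 75 bases (Rpl41) to 1257 bases (Rpl4), with a median of 453, and its Spearman correlation over the 73 genes was 0.73 with the difference HEC minus EC and 0.58 with Runx1- IAHC minus EC. For Runx1+ minus Runx1- IAHCs it was -0.40 and for Runx1+ IAHCs minus HECs -0.41. In Runx1- IAHCs minus ECs, the 24 genes under 400 bases had a median of -1.23, the 30 genes from 400 to under 600 bases -0.48, and the 19 longer genes 0.05. Other protein-coding genes in the same length classes had medians of 0.11, 0.60 and 0.88, so the ribosomal protein genes were lower within each class. The longest class was open upwards, so its other genes could be far longer than the 1257 bases at which the ribosomal protein genes ended. In HECs minus ECs the ribosomal protein genes had medians of -0.67, -0.12 and 0.21 from short to long, and the other genes 0.28, 0.36 and 0.03. For the long class the ribosomal protein genes were thus above the other genes in HECs. The part of transcript length in the amplification of these libraries was not tested.

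In Runx1+ minus Runx1- IAHCs the 3 length classes had medians of 1.24, 0.89 and 0.77, and the other genes 0.17, -0.30 and -0.86, so ribosomal protein genes were higher in Runx1+ IAHCs in each class. GC content of the coding sequence ran from 44.9% (Rpl30) to 61.6% (Rpl36), and its correlations with the 4 differences were between -0.31 and 0.34. The 4 X-linked genes (Rpl10, Rpl36a, Rpl39 and Rps4x) had a median of -1.31 in Runx1- IAHCs minus ECs, and the 69 autosomal genes -0.69. Rpl36a was at 749 TPM in ECs and 250 TPM in Runx1- IAHCs, and Rps4x at 787 and 449 TPM. Rpl10 was at 1223 and 592 TPM, but was nearly level in ECs, HECs (1301 TPM) and Runx1+ IAHCs (1179 TPM).

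Pseudogene rows with sequence of these genes had high values. How reads that match several places were counted is not given in the sources used here, so the values of a gene and of its copies may share, split or leave out such reads, and the origin of reads on a copy was not tested. By alignment to the coding sequences (at least 90% identity over at least 75 bases), 955 pseudogene rows matched 72 of the 73 genes, with a median of 9 copies per gene and a maximum of 82 for Rpl21. Their summed TPM exceeded that of the genes 2.59 times (ECs), 2.47 times (HECs), 2.54 times (Runx1+ IAHCs) and 2.31 times (Runx1- IAHCs). TPM divides by length and the copies are short. Reads could be recovered for 66 of the 73 genes and 941 of the 955 copies. In recovered reads these copies held 4.10%, 3.68%, 5.70% and 2.53% of each library in that order, and these genes 5.11%, 4.54%, 7.08% and 3.27%.

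**Figure D3:**
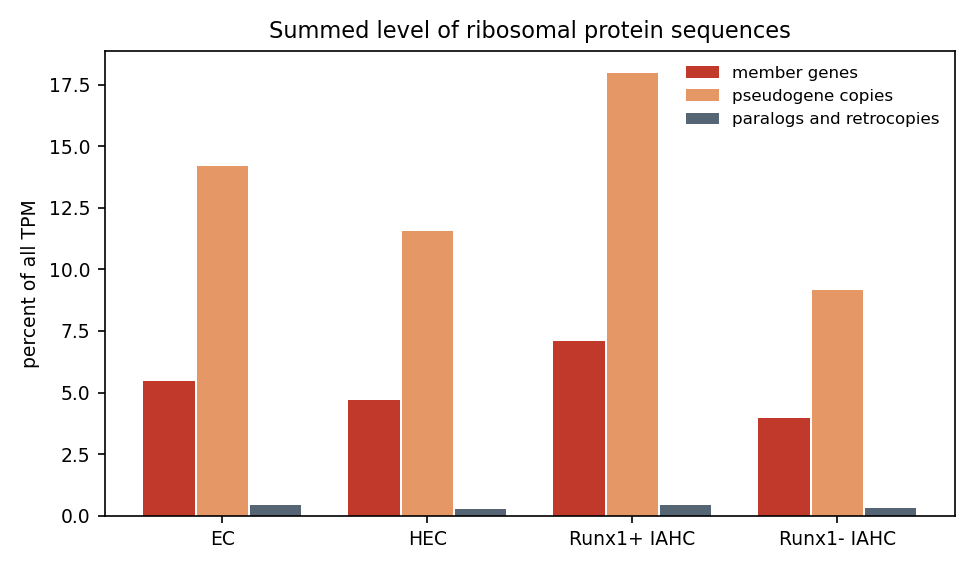
Percent of all TPM in each library held by the 73 ribosomal protein genes, their 955 pseudogene copies, and the 8 paralogs and retrocopies. Genes and copies are both highest in Runx1+ IAHCs (7.08% for the genes) and lowest in Runx1- IAHCs (3.97%).

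The copies followed their parent genes. Across 487 to 506 copies at 10 TPM or more, the Spearman correlation of a copy's difference with that of its parent was 0.81 for HEC minus EC, 0.71 for Runx1+ minus Runx1- IAHCs, 0.69 for Runx1+ IAHCs minus HECs and 0.75 for Runx1- IAHCs minus ECs, where copies of 1 gene share its sequence and are not independent. Gm14303, a copy of Rps29, was at 3211, 1406, 2672 and 1039 TPM in ECs, HECs, Runx1+ IAHCs and Runx1- IAHCs, the same order as Rps29 itself. Adding each gene's copies to it left the medians of the 4 comparisons at -0.27, 1.08, 0.67 and -0.76.

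Sharing of sequence was general. A 51-base window, the read length of the study, was found in another gene of the annotation for a median of 92.8% of the windows of a coding sequence. The share reached 100% for Rpl10 and others. The 3 genes with at most 25% of shared windows (Rpl4 and Rps3 among them, a limit set after the data were seen) were higher in HECs than in ECs and higher in Runx1- IAHCs than in ECs, with medians of 0.50 and 0.55, opposite to the whole group. Under a limit of 50% there were 9 genes, Rps21 and Rpl22 at the low end among them, with medians of 0.14 and 0.05. In Runx1+ minus Runx1- IAHCs all 9 were positive, with a median of 0.76. The medians relative to ECs thus changed sign with the genes that were counted, while that of Runx1+ minus Runx1- IAHCs was above 0 in both subsets.

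The paralogs did not follow a single pattern. Rps27rt is a retrocopy on chromosome 9 whose coding sequence equals that of Rps27 in 252 of 252 bases, so their reads cannot be told apart there. Rps27 was at 1418, 741, 1126 and 880 TPM in ECs, HECs, Runx1+ IAHCs and Runx1- IAHCs, and Rps27rt at 2677, 1370, 2132 and 1496 TPM. Rps27l, a p53 target in human and mouse cells with 76.2% identity to Rps27, was at 948, 996, 1364 and 874 TPM and was nearly level in the 3 other libraries beside Runx1+ IAHCs. Rpl22l1, which can replace Rpl22 in the ribosome, was at 202, 92.3, 194 and 61.2 TPM and had the same order as Rpl22. Rpl36al was at 105, 150, 177 and 60.1 TPM, whereas Rpl36a was lower in HECs (468 TPM) than in ECs. Rpl3l, a muscle paralog of Rpl3, had 0 to 7 reads per library and is not compared.

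Rpl39l, Rpl10l and Rpl7l1 were highest in Runx1- IAHCs, where their partners were lowest. Rpl39l (ENSMUSG00000039209, chromosome 16, 10170226 to 10174911), known from male germ cells in the mouse, was at 21.6 TPM in ECs (18.1 to 25.1), 4.61 TPM in HECs (3.19 to 6.14), 16.3 TPM in Runx1+ IAHCs (13.6 to 19.1), and 56.96 TPM in Runx1- IAHCs (51.6 to 62.4). Rpl39l was 3.51-fold higher in Runx1- than in Runx1+ IAHCs (2.89 to 4.28), whereas Rpl39 was 4.92-fold lower (4.65 to 5.21). The coding sequences of both, without the stop codon, are shown because the paralog and its partner differed in opposite directions and can be told apart by reads. They are spliced sequences of the GENCODE annotation of GRCm38, and capitals mark the 23 of 153 bases that differ.
Rpl39 (chrX:37082520-37085402, minus strand): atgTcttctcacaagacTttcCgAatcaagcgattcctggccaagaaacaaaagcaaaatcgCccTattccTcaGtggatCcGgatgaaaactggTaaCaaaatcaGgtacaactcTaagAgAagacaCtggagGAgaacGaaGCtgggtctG
Rpl39l (chr16:10170226-10174911, plus strand): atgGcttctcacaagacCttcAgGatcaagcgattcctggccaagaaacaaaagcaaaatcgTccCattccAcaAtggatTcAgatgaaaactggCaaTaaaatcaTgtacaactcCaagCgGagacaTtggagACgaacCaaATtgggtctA

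None of the 51-base windows of Rpl39l was found in another gene. Rpl10l (chromosome 12, 66283379 to 66284401), an intronless paralog that stands in for the X-linked Rpl10 in mouse spermatogenesis, had 352 reads in Runx1- IAHCs (37.2 TPM) and 44 reads in ECs (5.22 TPM). It had no read in HECs or Runx1+ IAHCs, so that it was at least 132-fold and 129-fold higher in Runx1- IAHCs, against a floor of 3 reads per library. Rpl7l1 (chromosome 17, 46773907 to 46782656), a relative of Rpl7 with 54.4% identity, was at 59.8, 80.6, 92.5 and 205 TPM in ECs, HECs, Runx1+ IAHCs and Runx1- IAHCs. The germ cell markers were highest in Runx1- IAHCs and next in ECs, as were Rpl10l and Rpl39l, and their part in the levels of these paralogs was not tested.

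**Figure D4:**
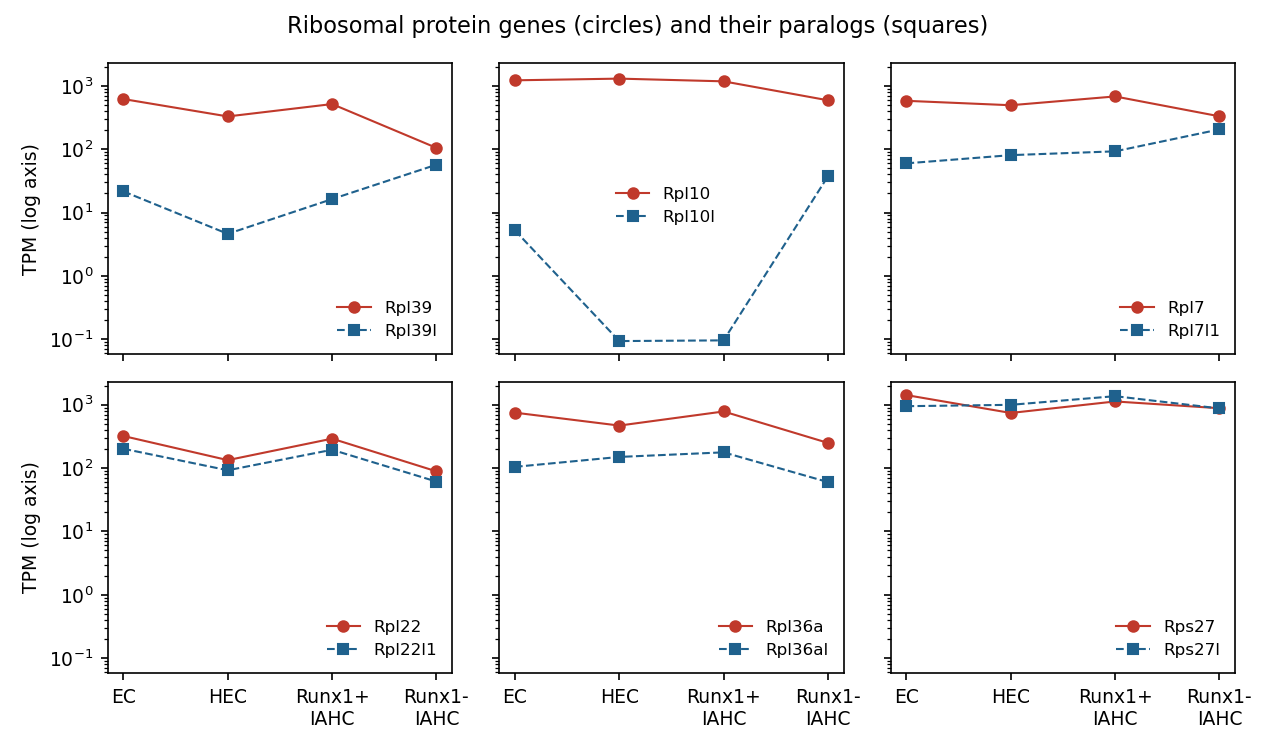
TPM (log axis) of 6 ribosomal protein genes (circles) and their paralogs (squares) in the 4 libraries, where lines join the points of 1 gene. Rpl39l, Rpl10l and Rpl7l1 come closest to their partners in Runx1- IAHCs, at 56.96, 37.2 and 205 TPM, while Rpl22l1 keeps close to the shape of Rpl22; Rpl10l had no read in HECs and Runx1+ IAHCs and is drawn at the deposited value.

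The subunits with other kinds of names were mixed. Rpsa, a small subunit protein, was at 304 TPM in ECs, 430 TPM in HECs, 556 TPM in Runx1+ IAHCs and 182 TPM in Runx1- IAHCs. Rack1, a signalling scaffold on the small subunit, was at 592, 716, 908 and 451 TPM, so both were highest in Runx1+ IAHCs and lowest in Runx1- IAHCs. Fau, a ubiquitin-like fusion with a small subunit protein, was lowest in ECs at 906 TPM, with 1062, 1602 and 1222 TPM in the other libraries. Rps27a, a ubiquitin fusion with a small subunit protein that the name rule did find, was at 1202, 623, 1229 and 344 TPM. Rps27a was thus lowest in Runx1- IAHCs, and Fau was not.

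The medians of other genes of translation differed from that of the ribosomal protein genes. The 77 mitochondrial ribosomal protein genes, which serve the ribosome of the mitochondrion, had a median of 1.07 in Runx1- IAHCs minus ECs, with 43 of the 76 compared past 2-fold upwards and 1 downwards, where 42.5% of all genes were higher and 16.6% lower and the median of all genes was 0.71. Between the IAHC libraries their median was -0.13. Mrpl18 was at 131, 312, 385 and 322 TPM in ECs, HECs, Runx1+ IAHCs and Runx1- IAHCs. Of 50 initiation factor genes in the table, 43 were compared in Runx1- IAHCs minus ECs, and 18 were past 2-fold upwards, near the 42.5% of all genes, with a median of 0.72 that was also near that of all genes (0.71). Eif5a, an initiation and elongation factor, was at 246, 837, 940 and 2446 TPM.

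Genes of ribosome biogenesis (27 in the table) were mostly higher in Runx1- IAHCs than in ECs. Relative to ECs, 21 of them passed 2-fold upwards and 0 downwards, with a median of 2.13, against 42.5% and 16.6% of all genes. In Runx1+ minus Runx1- IAHCs 12 were lower and 2 higher (median -0.80), where 37.9% of all genes were lower and 15.8% higher and their median was -0.53. Nop56, of the particles that methylate ribosomal RNA, was at 23.8, 38.2, 92.1 and 425 TPM in ECs, HECs, Runx1+ IAHCs and Runx1- IAHCs. Npm1, an abundant nucleolar protein whose mRNA is also listed with the TOP genes, was instead highest in Runx1+ IAHCs, with 938, 839, 2246 and 1064 TPM. Myc, a transcriptional activator of ribosome synthesis, was at 31.7, 24.1, 108 and 132 TPM.

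The 7 elongation factor and other TOP genes in the table had a median of 1.08 in Runx1+ minus Runx1- IAHCs (1.02 for the ribosomal proteins), 4 of them past 2-fold upwards, against 15.8% of all genes, and 0 downwards. In Runx1- IAHCs minus ECs their median was -0.02, against 0.71 for all genes and -0.74 for the ribosomal proteins. By at least 2-fold, 2 of them were higher and 1 lower, where 42.5% of all genes were higher and 16.6% lower. In HECs minus ECs their median was 0.23, against 0.12 for all genes and -0.23 for the ribosomal proteins. Tpt1, a TOP mRNA of a translationally controlled protein, was at 854, 473, 632 and 187 TPM. Eef1a1, the main elongation factor, was at 1465, 1901, 2768 and 1445 TPM, and Eef2, which drives translocation, was highest in Runx1- IAHCs (492 TPM) and lowest in ECs (181 TPM). Hosts of small nucleolar RNAs, several of which also begin with a TOP motif, were lower in HECs than in ECs, with 5 of 6 at least 2-fold lower, against 18.6% of all genes, and a median of -1.57. In Runx1- IAHCs minus ECs the median of these 6 was -1.28, and in Runx1+ minus Runx1- IAHCs 0.97. Snhg8 was at 129, 44.7, 135 and 21.9 TPM, while Gas5 was lowest in HECs, at 264, 151, 300 and 271 TPM.

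**Figure D5:**
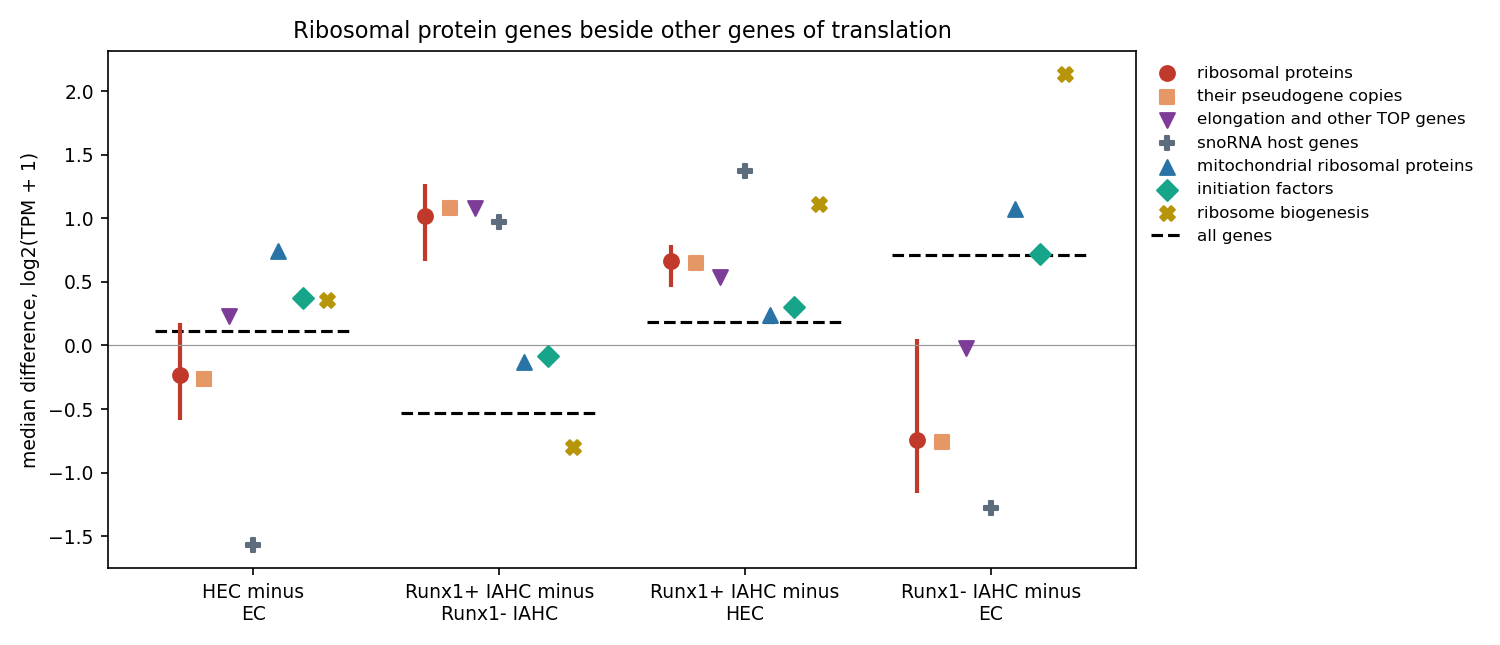
Median difference of log2(TPM + 1) for 7 gene lists in the 4 comparisons, with the interquartile range of the ribosomal protein genes as a bar and the median of all genes as a dashed line. In Runx1- IAHCs minus ECs the ribosomal proteins and their copies lie below 0 (-0.74 for the genes) and ribosome biogenesis genes at 2.13, while in Runx1+ minus Runx1- IAHCs the ribosomal proteins are at 1.02.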

How the data were processed

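RNA of 4 sorted populations was sequenced as single reads of 51 bases after template-switching amplification, 1 library each. Neither kit named marks strand. The authors aligned reads to GRCm38 with HISAT2 2.0.4, counted genes in union mode with GENCODE M19, and deposited TPM (reads scaled by gene length and depth), not logged. Exonic lengths of GENCODE M21 gave whole reads, with 1 read added per gene, for 96.5% to 96.6% of rows per library (tolerance 0.01 reads). Among the 73 genes, Rpl10a, Rpl17, Rpl36, Rps10, Rps14, Rps18 and Rps28 did not come out whole and have no intervals. With 1 library per group no count test was run.

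Differences of log2(TPM + 1), which understate low genes, needed 10 TPM in whichever library was higher, and were called at 2-fold. Intervals are exact (Poisson for levels, Clopper-Pearson for ratios) and cover counting error only, since PCR reads carry no molecular identifiers. Coding sequences were those of the principal transcript, and copies were found with blastn 2.17.0. Python 3.11.15, numpy 2.4.6, pandas 2.3.3, scipy 1.17.1 and biopython 1.88 were used. The calls were run on simulated reads with planted fold changes. These reads held counting noise only, so they say nothing about variation between libraries. Named were the 10 genes of highest mean, the 4 at each end of each comparison, the 6 of widest range, the P stalk, paralogs from 1 TPM with partners, subunits with other names, and at most 4 genes per companion list by mean level. Rps27a, Rps4x, Rps3, Nop56, Eef2 and the genes that mark the ends of a feature (Rpl21, Rpl41, Rpl30, Rpl36) were chosen after their values were seen. Some genes that the rule names are not reported here. The members and lists were chosen with earlier results of these data known. Alternatives were other pseudocounts, minimums, scalings and gene sets. Sheets with 9 per-sample columns that match no labelled sample were not used, nor were descriptive columns beside the TPM values.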

Additional observations from a re-analysis of the deposited data

Results flagged for a closer look

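The difference of the ribosomal protein genes between Runx1(GFP)+ and Runx1(GFP)- gates had opposite directions without and with ckit. Among ckit- cells (HECs minus ECs) the median over the 73 genes was -0.23, and among ckit+ cells (Runx1+ minus Runx1- IAHCs) it was 1.02. With 1 library per population the difference between these values was not tested. The gates also differed in cell type markers. Platelet markers summed to 55427 TPM in HECs and 428 TPM in ECs. Germ cell markers summed to 7268 TPM in Runx1- IAHCs and 4.37 TPM in Runx1+ IAHCs. The part of these markers in the medians was not tested. In the 3 genes with at most 25% of shared windows HECs minus ECs was instead 0.50, and in the 9 genes with at most 50% it was 0.14, the same sign as among ckit+ cells (0.42 and 0.76).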

How the results depend on the processing

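No paired analysis was possible because each population has 1 library, and for the same reason no replicate could be left out. Directions of the 4 medians were kept with a pseudocount of 5 TPM, other scalings, paralogs included, and copies added. They were also kept in the 55 genes with at most 5 named pseudogenes and with recovered reads. Minimums of none or 50 TPM kept the same 73 genes, so they could not change a median. Recovered reads came from the same deposited values, for 66 genes. The direction turned for HEC minus EC (0.50) and Runx1- IAHC minus EC (0.55) in the 3 genes with at most 25% of shared windows, where Runx1+ minus Runx1- IAHC was 0.42. In these 3 genes the counts at 2-fold were 1 higher for Runx1- IAHC minus EC, against 42.5% of all genes, and 0 otherwise. The cause of this and the other changes was not tested. Median-ratio scaling gave medians of 0.46 for Runx1+ IAHC minus HEC and -1.25 for Runx1- IAHC minus EC. At 2-fold, 1 gene was higher for Runx1+ IAHC minus HEC, against 8.31% of all genes on that scale. For Runx1- IAHC minus EC 0 were higher and 42 lower, against 29.4% and 27.2% of all. For HEC minus EC 0 were higher and 12 lower, against 17.9% and 24.1% of all. Leaving mitochondrial, ribosomal protein and hemoglobin genes out of the scaling gave a median of -0.92 for Runx1- IAHC minus EC, with 1 gene higher and 29 lower. On that scale 37.0% of all genes were higher and 21.1% lower. For HEC minus EC 0 genes were higher and 11 lower, against 18.8% and 23.6% of all. With paralogs, 3 genes were lower in Runx1+ than in Runx1- IAHC and 5 higher in Runx1- IAHC than in EC. With at most 5 named pseudogenes, 3 of the 55 genes were 2-fold higher in Runx1+ IAHC than in HEC, against 13.3% of all. The share of TPM with paralogs was 5.90% in EC, 4.97% in HEC, 7.50% in Runx1+ IAHC and 4.27% in Runx1- IAHC. The share without paralogs was 7.45%, 5.50%, 8.01% and 4.40% in that order, against a total without mitochondrial genes, their nuclear copies and hemoglobin genes. The settings with recovered reads, copies added and shared windows were chosen after seeing the data. Reads shared with copies, the number of sorted cells and 1 library per population limit these values, and counting intervals cover none of them.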
